A study of Mus musculus with 47 samples.

Results

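The genes described here are the 7 transcription factor genes that start and tune the transcription loop of the circadian clock: the activators *Arntl* (also called *Bmal1*), *Clock* and *Npas2*, the nuclear receptors *Rora* and *Rorb*, and the REV-ERB receptors *Nr1d1* and *Nr1d2*. They were found by gene symbol among the 54281 genes of the TPM table, and all 7 were in both tables and were expressed above the limit used for testing, a mean of 1 TPM, which 14580 genes reached. TPM scale each transcript by its length and each library to the same total, so levels can be compared between genes.

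Cortex was taken from male C57BL/6J mice of about 3 months, wild type, housed 4 to a cage in 12 h of light and 12 h of dark. The mice ate a control diet (23 libraries) or a diet with 1200 ppm of PLX5622 (24 libraries) for 10 days. PLX5622 inhibits CSF1R, a receptor that microglia and the macrophages at the borders of the brain need to survive, and it acts in the whole body. Brains were collected every 4 h, at Zeitgeber times (ZT) 2, 6, 10, 14, 18 and 22, where lights went on at ZT0 and off at ZT12, with 4 mice at each time and diet and 3 in the control group at ZT14.

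BMAL1 pairs with CLOCK, or with its close relative NPAS2, and the pair binds E-box sequences to switch on many genes, among them the *Per* and *Cry* repressors and both REV-ERB genes. The REV-ERB proteins then repress *Arntl* through elements that the ROR proteins bind as activators. In this way *Arntl* and the REV-ERB genes are known to peak at opposite times of day in many tissues. RORβ and RORα are also known for roles in sensory cortex, thalamus and cerebellum that are not tied to the clock.

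Libraries held 16597987 to 27626161 counts, and the 7 genes had 258 to 4311 counts each in a library. The mean log2(TPM + 1) of 10 microglial markers was 5.02 to 5.58 in control mice and 1.12 to 3.10 in PLX5622 mice, so the groups did not overlap. Markers of neurons, 6 of 6 expressed, ran from 7.54 to 8.36 and from 7.55 to 8.34. In 7 libraries (3 control, 4 PLX5622) the mean of 3 cerebellum markers was above 2.5 (2.81 to 5.07), against 0.0493 to 2.15 in the other 40. Markers of other tissue were present in all libraries. Those of striatum ran from 3.25 to 5.92 in control mice (median 5.21) and from 4.02 to 5.81 in PLX5622 mice (median 5.49). Those of choroid plexus ran from 2.33 to 4.83 (median 4.04) and from 2.85 to 4.96 (median 4.47). From the RNA of a bulk tissue alone, fewer cells of a type and less RNA per cell cannot be told apart. The study also stained the other hemisphere for IBA1, a microglial marker, and reported the loss of most microglia with PLX5622.

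By mean TPM the order of the 7 genes was the same in both diets. *Nr1d1* was highest with 51.5 ± 15.7 TPM in control mice (SD, n = 23) and 48.6 ± 13.2 TPM in PLX5622 mice (SD, n = 24), followed by *Nr1d2* with 36.6 ± 6.97 and 37.1 ± 7.95 TPM. *Npas2* was next with 19.1 ± 3.92 and 19.2 ± 2.88 TPM. *Rora* (11.5 ± 2.36 and 11.7 ± 2.36 TPM), *Arntl* (11.1 ± 2.51 and 11.6 ± 3.15 TPM) and *Clock* (10.7 ± 1.45 and 11.5 ± 1.66 TPM) differed from each other by less than their spread. *Rorb* was lowest, with 5.02 ± 0.492 and 5.15 ± 0.541 TPM. The partner of BMAL1 with the larger transcript level in this tissue was thus *Npas2* rather than *Clock*.

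A 24-h cosine was fitted to log2(TPM + 1) of each diet in 1 limma model, and the amplitude is the distance from the middle to the peak of that cosine on the log2 scale. In both diets the same 3 of 7 genes had a 24-h rhythm at an adjusted p under 0.05: *Arntl*, *Nr1d1* and *Nr1d2*. Of all genes tested, 0.604% (88 genes) passed this test in control mice and 1.45% (212 genes) in PLX5622 mice. Without the 7 libraries with cerebellum markers, 60 and 56 genes passed, and the same 3 of the 7 genes were among them in each diet. The PLX5622 count also fell to 136 genes when mouse 2 at ZT10 of that diet was left out and by over 1.5 times when mouse 1, 3 or 4 at ZT14 was left out, the lowest being 128 genes, without mouse 1, and edgeR called 588 genes in control mice and 451 in PLX5622 mice, so the order of the diets in this background depended on the libraries and the test. By p-value, *Nr1d1*, *Arntl* and *Nr1d2* stood 4th, 7th and 9th of the 14580 genes in control mice, and *Nr1d2*, *Arntl* and *Nr1d1* stood 4th, 5th and 8th in PLX5622 mice. *Clock*, *Npas2*, *Rora* and *Rorb* did not pass in either diet. Their amplitudes were 0.05 to 0.15 in control mice and 0.07 to 0.11 in PLX5622 mice, where the median over all genes tested was 0.09 in each diet. In control mice *Clock* stood at the 79.8th percentile of amplitude and *Rorb* at the 23.1st. Without the libraries with cerebellum markers the amplitude of *Rora* was 0.13 in control mice and 0.02 in PLX5622 mice, and that of *Npas2* was 0.06 in each diet.

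**Figure D1:**
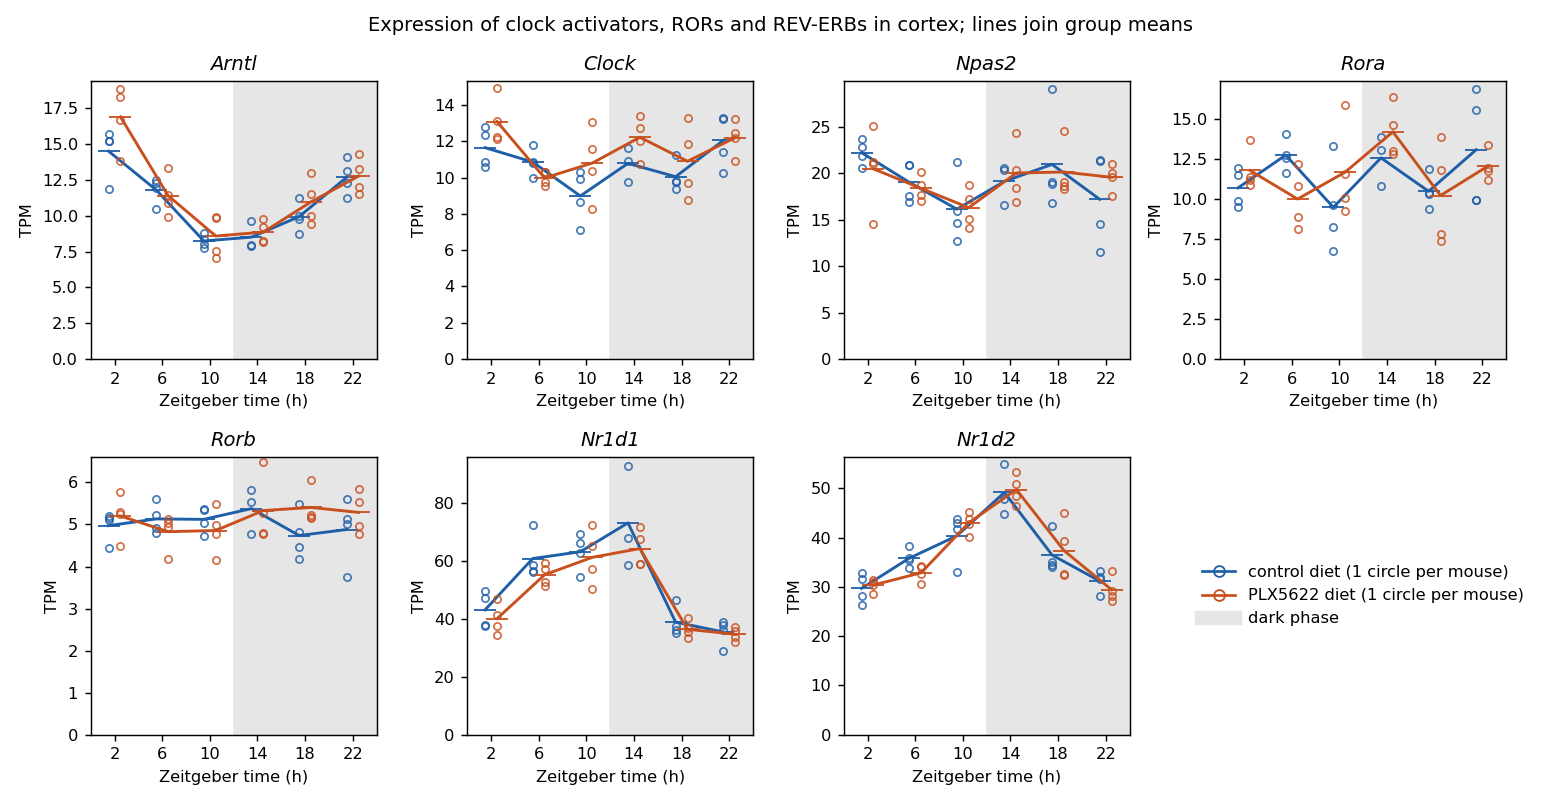
TPM of the 7 genes (y axes) against Zeitgeber time in hours (x axes), with 1 circle per mouse, lines through the group means, control mice in blue and PLX5622 mice in orange, and the dark phase in grey. *Arntl* was highest at ZT2 in both diets, *Nr1d1* and *Nr1d2* were highest at ZT14, and the other 4 genes varied by no more than 1.42-fold between their highest and lowest group means.

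*Arntl* (ENSMUSG00000055116, GRCm38 chromosome 7, 113207465 to 113314126, plus strand) encodes BMAL1, the partner shared by CLOCK and NPAS2. In control mice its 4 values at ZT2 were 11.8, 15.7, 15.2 and 15.2 TPM, and its 4 values at ZT10 were 7.74, 8.39, 8.03 and 8.79 TPM. In PLX5622 mice the values at ZT2 were 16.7, 13.8, 18.8 and 18.3 TPM, and those at ZT10 were 9.83, 7.05, 7.51 and 9.95 TPM. All ZT2 values lay above all ZT10 values within each diet, and the ratio of the highest to the lowest group mean was 1.76 in control mice and 1.97 in PLX5622 mice. The amplitude was 0.38 (standard error 0.050) with a peak at ZT 1.03 (standard error 0.48 h) in control mice (limma F test, adjusted p = 1.73e-05). It was 0.41 (standard error 0.048) with a peak at ZT 0.68 (standard error 0.45 h) in PLX5622 mice (adjusted p = 1.80e-06). Its level was lowest around the end of the light phase and rose through the night, from 8.51 ± 1.0 TPM at ZT14 (SD, n = 3) to 9.94 ± 1.02 TPM at ZT18 and 12.7 ± 1.22 TPM at ZT22 (SD, n = 4 each) in control mice. In PLX5622 mice the same times had 8.86 ± 0.777, 11.0 ± 1.6 and 12.8 ± 1.24 TPM (SD, n = 4 each).

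RefSeq lists 2 start sites for *Arntl* in the promoter table used here. The stretch after the second start is shown because it holds the letters TAGGTCA, the core of the element that RORs and REV-ERBs bind, in capitals (GRCm38.p6, chr7:113207530-113207559, plus strand):

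*Arntl*: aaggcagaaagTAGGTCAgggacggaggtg

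These 30 bases run from base 20 to base 49 after that start. Of 32851 promoter windows, each from bases before a start to 50 bases after it, 2.61% held TAGGTCA on either strand, and 1 of the 11 windows of the 7 genes did. The match describes letters in this window and no binding was measured.

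*Nr1d1* (ENSMUSG00000020889, chromosome 11, 98767932 to 98775333, minus strand) encodes REV-ERBα, a repressor of *Arntl*. At ZT14 its values were 67.9, 58.7 and 92.8 TPM in control mice, and at ZT22 they were 28.9, 37.9, 38.9 and 36.2 TPM. In PLX5622 mice they were 59.1, 58.9, 71.6 and 67.5 TPM at ZT14 and 35.9, 31.9, 33.9 and 37.1 TPM at ZT22. No value at ZT22 reached a value at ZT14 in either diet. The amplitude was 0.49 (standard error 0.060) in control mice (adjusted p = 5.63e-06) and 0.47 (standard error 0.060) in PLX5622 mice (limma, adjusted p = 5.19e-06), which corresponds to a fitted ratio of peak to trough of 1.97 and 1.93. The fitted peaks were at ZT 10.1 and ZT 10.2 (standard error 0.48 h each), earlier than the highest group mean at ZT14. The group means were higher at ZT6, ZT10 and ZT14 than at the other 3 times: in control mice they went from 43.1 ± 6.25 TPM at ZT2 to 60.8 ± 7.72 TPM at ZT6, 63.2 ± 6.49 TPM at ZT10 (SD, n = 4 each) and 73.1 ± 17.6 TPM at ZT14 (SD, n = 3), then 38.9 ± 5.24 TPM at ZT18 (SD, n = 4). PLX5622 mice had 40.1 ± 5.32, 55.2 ± 3.80, 61.2 ± 9.63 and 64.3 ± 6.30 TPM at these 4 times and 36.4 ± 2.89 TPM at ZT18 (SD, n = 4 each). The control mean at ZT14 rested on 1 mouse with 92.8 TPM. In CPM of the counts, PLX5622 mice had 107 ± 9.98 at ZT10 and 106 ± 4.87 at ZT14 (SD, n = 4 each), so the sampled time of the highest level was not resolved between ZT10 and ZT14.

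*Nr1d2* (ENSMUSG00000021775, chromosome 14, 18204054 to 18239127, minus strand) encodes REV-ERBβ. Its values at ZT14 were 44.8, 47.7 and 55.0 TPM in control mice and 53.2, 46.4, 50.9 and 48.5 TPM in PLX5622 mice. At ZT2 it had 31.6, 28.2, 26.2 and 32.8 TPM in control mice, and at ZT22 it had 27.2, 28.1, 33.2 and 29.1 TPM in PLX5622 mice. These were the highest and lowest groups of each diet and they did not overlap. The amplitude was 0.30 (standard error 0.043) in control mice (limma, adjusted p = 1.01e-04) and 0.36 (standard error 0.042) in PLX5622 mice (adjusted p = 8.22e-07). The peaks at ZT 12.8 (standard error 0.53 h) and ZT 12.9 (standard error 0.44 h) fell just after lights off.

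The bases before the starts of both REV-ERB genes are shown since their transcripts rose and fell on a similar schedule. The capitals mark CACGTT, a variant of the E-box read here on the other strand as AACGTG, in *Nr1d1* (GRCm38.p6, chr11:98775378-98775497, minus strand), and AGGTCA, letters that many nuclear receptors bind, in *Nr1d2* (chr14:18239107-18239226, minus strand). Each stretch covers bases -120 to -1 before the start:

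*Nr1d1*: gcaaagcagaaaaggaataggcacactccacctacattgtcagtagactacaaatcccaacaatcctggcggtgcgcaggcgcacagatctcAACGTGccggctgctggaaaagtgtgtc

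*Nr1d2*: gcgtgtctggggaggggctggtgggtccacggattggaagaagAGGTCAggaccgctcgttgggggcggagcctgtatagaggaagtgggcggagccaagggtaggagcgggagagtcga

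Counting both strands, CACGTT was in 4.68% of all windows and in 2 of the 11 windows of the 7 genes (*Nr1d1* and *Rorb*), and AGGTCA, which is also part of TAGGTCA, was in 16.3% of all windows and in 3 of the 11 (*Clock*, *Arntl* and *Nr1d2*). The E-box CACGTG was in 7.15% of all windows and in 0 of the 11. TTANGTAA, the D-box bound by DBP and its relatives, was in 2.32% of all windows and in 1 of the 11, for *Rorb*. A window of this size leaves out more distant elements.

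The order of the fitted peaks of the 3 rhythmic genes was the same in both diets. The fitted peak of *Nr1d1* came 9.05 h after that of *Arntl* in control mice (jackknife standard error over 23 libraries 0.87 h) and 9.52 h after it in PLX5622 mice (0.79 h over 24 libraries). That of *Nr1d2* came 11.7 h (0.78 h) and 12.2 h (0.80 h) after *Arntl*, which placed these 2 genes in antiphase. The fitted peak of *Nr1d2* followed that of *Nr1d1* by 2.68 h in both diets, with standard errors of 0.59 h and 0.55 h. This is a gap between fitted cosines, and both genes had their highest mean TPM at ZT14. With any 1 library left out it stayed between 2.43 and 3.04 h in control mice and between 2.34 and 2.87 h in PLX5622 mice. The amplitude of *Nr1d1* exceeded that of *Nr1d2* by 0.19 (jackknife standard error 0.060) in control mice and by 0.11 (0.056) in PLX5622 mice. *Arntl* and *Nr1d1* differed in amplitude by 0.10 (0.10) and 0.07 (0.10), within the error.

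**Figure D2:**
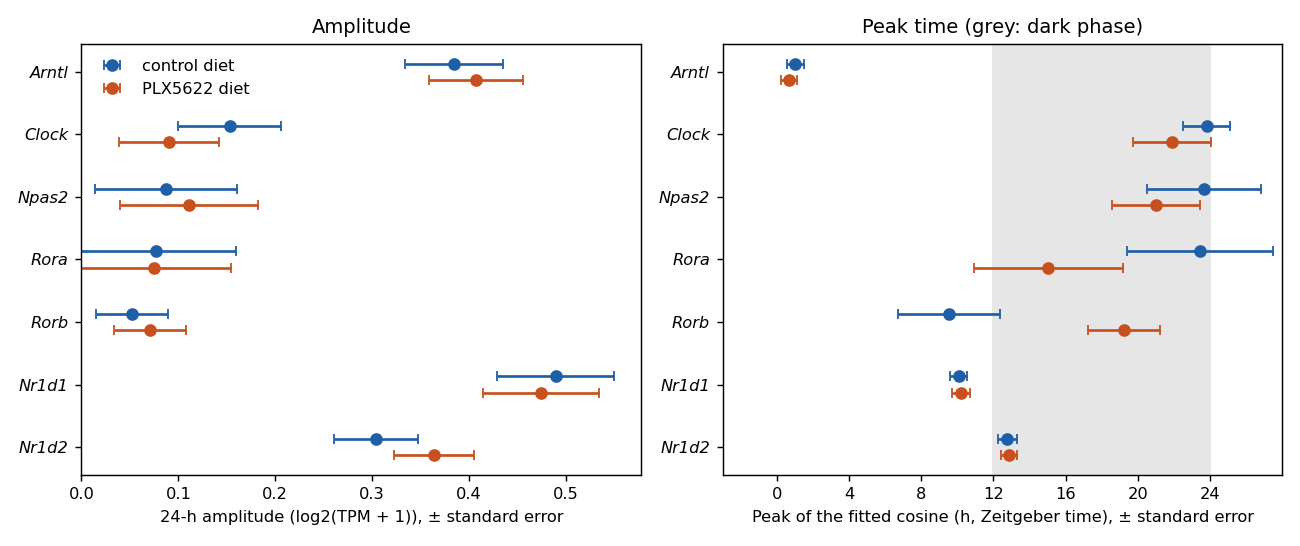
Amplitude of the fitted 24-h cosine on the log2(TPM + 1) scale (left) and its peak in hours of Zeitgeber time (right) for the 7 genes, with control mice in blue, PLX5622 mice in orange and bars of 1 standard error. *Arntl*, *Nr1d1* and *Nr1d2* stood apart in amplitude (0.30 to 0.49) and had peaks with standard errors of 0.44 to 0.53 h, while the peaks of the other 4 genes had standard errors of 1.30 to 4.11 h.

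*Clock* (ENSMUSG00000029238, chromosome 5, 76209868 to 76304792, minus strand) encodes the partner of BMAL1 that is most often studied. Its TPM in control mice were 10.2, 11.4, 13.3 and 13.2 at ZT22 and 10.3, 9.90, 7.09 and 8.63 at ZT10, so that the highest and lowest groups overlapped by 1 pair of values. The amplitude was 0.15 (standard error 0.053) with a peak at ZT 23.8 in control mice (limma, adjusted p = 0.312) and 0.09 (standard error 0.051) with a peak at ZT 21.9 in PLX5622 mice (adjusted p = 0.634). *Npas2* (ENSMUSG00000026077, chromosome 1, 39193731 to 39363236, plus strand) had amplitudes of 0.09 (standard error 0.073; adjusted p = 0.821) and 0.11 (standard error 0.071; adjusted p = 0.703). Its spread between mice of a group was 17.3% of the mean in TPM, second to *Rora* with 19.2%, whereas *Nr1d2* had 9.18%.

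The calls of these 2 activators depended on the scale and the test. When the deposited counts were tested with edgeR, the rhythm of *Clock* (adjusted p = 0.0372) and of *Npas2* (adjusted p = 0.0441) passed in control mice, which made 5 of 7 genes, on a background of 3.22% of 18274 genes. In PLX5622 mice the same 3 genes passed as with TPM, with *Clock* at an adjusted p of 0.0707 and *Npas2* at 0.250, on a background of 2.47%. DESeq2 called *Clock* in both diets (adjusted p = 0.0123 and 0.0361) and *Npas2* in control mice (0.0204). With TPM, *Clock* also passed in control mice after median-of-ratios scaling (limma, adjusted p = 0.0077) and with the mitochondrial share as a covariate (0.0327). Those fits called 302 and 248 of 14580 genes in control mice, against 88 in the main fit. Of 13 alternatives, *Clock* passed in 5 in control mice and in 2 in PLX5622 mice, and *Npas2* passed in 2 in control mice and in 0 in PLX5622 mice. CPM here scale the counts to library size with edgeR's normalization factors, and not to gene length. TPM and these CPM thus differ in normalization and in gene length. They also differ in the program behind them, Salmon for TPM and, by the labels, featureCounts for the counts. In CPM, *Npas2* had 43.7, 46.4, 47.1 and 46.0 at ZT2 and 30.8, 29.6, 34.8 and 32.6 at ZT10 in control mice, without overlap. In TPM the same mice had 21.9, 20.6, 22.8 and 23.7 at ZT2 and 21.3, 15.99, 12.7 and 14.7 at ZT10, with overlap by the first ZT10 mouse. Between the first and the third control mouse at ZT10, *Npas2* went from 21.3 to 12.7 TPM but from 30.8 to 34.8 CPM. In the same mice *Clock* went from 10.3 to 7.09 TPM and from 70.4 to 57.7 CPM. With median-of-ratios scaling of TPM, *Npas2* did not pass in control mice (limma, adjusted p = 0.683). The cause of the gap between the scales was not tested. The control amplitude of *Npas2* was 0.20 in counts and 0.09 in TPM, and the spread within groups was 11.4% of the mean in CPM and 17.3% in TPM. For *Clock* the amplitude was similar (0.13 in counts and 0.15 in TPM) and the spread fell from 11.8% to 6.05%. All 7 genes had a smaller spread within groups in CPM than in TPM. Counting error was 1.52% to 6.23% of a count, so it was below the spread in TPM for all 7 genes. The calls in 1 diet do not show a difference between diets: the unadjusted p of the interaction in edgeR was 0.703 for *Clock* and 0.514 for *Npas2*.

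**Figure D3:**
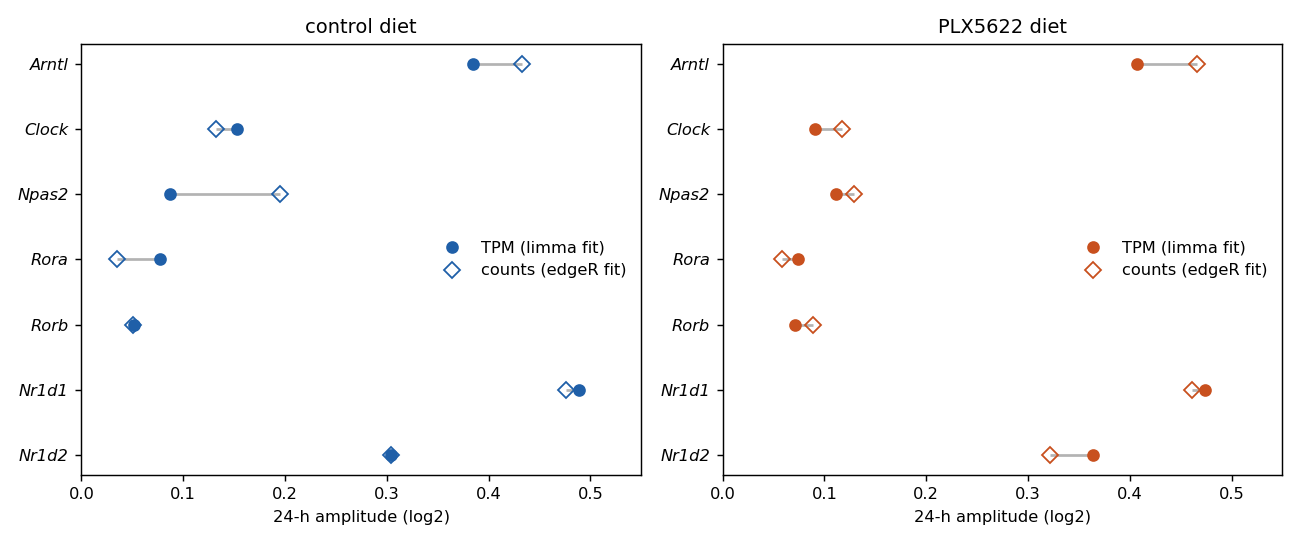
Amplitude of the 24-h rhythm on the log2 scale (x axes) of each gene in control mice (left) and PLX5622 mice (right), from TPM with limma (filled circles) and from the counts with edgeR (open diamonds). *Npas2* in control mice moved most, from 0.09 to 0.20, while *Nr1d2* in control mice was at 0.30 with both.

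*Rora* (ENSMUSG00000032238, chromosome 9, 68653786 to 69388246, plus strand) encodes RORα and did not pass the test of a rhythm in either diet. Its amplitude was 0.08 (standard error 0.082; limma, adjusted p = 0.885) in control mice and 0.07 (standard error 0.080; adjusted p = 0.879) in PLX5622 mice. Values ran from 6.77 to 16.9 TPM in control mice and from 7.41 to 16.4 TPM in PLX5622 mice. This range moved with markers of thalamus, while the term for cerebellum markers was within its error. In a fit with the mean levels of 4 thalamus markers and 3 cerebellum markers as covariates, *Rora* rose by 0.17 (standard error 0.034) on the log2 scale per SD of the thalamus markers and by 0.04 (standard error 0.036) per SD of the cerebellum markers. The terms for thalamus of the other 6 genes lay between -0.05 and 0.06, with *Clock* at 0.06 (standard error 0.026) and *Rorb* at 0.05 (standard error 0.019). The thalamus markers ran from 1.57 to 3.08 in control mice and from 1.27 to 3.06 in PLX5622 mice as mean log2(TPM + 1), and 1 of them, *Slitrk6*, had a mean of 0.501 TPM, under the limit for testing. The 7 libraries with cerebellum markers had a median of 13.3 TPM of *Rora* (9.24 to 16.4) and the other 40 had 11.5 TPM (6.77 to 16.9). With these covariates the rhythm of *Rora* still did not pass (adjusted p = 0.837 and 0.922), nor without the 7 libraries (0.806 and 0.997). The part of tissue from other regions in the spread of *Rora* was not tested.

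**Figure D4:**
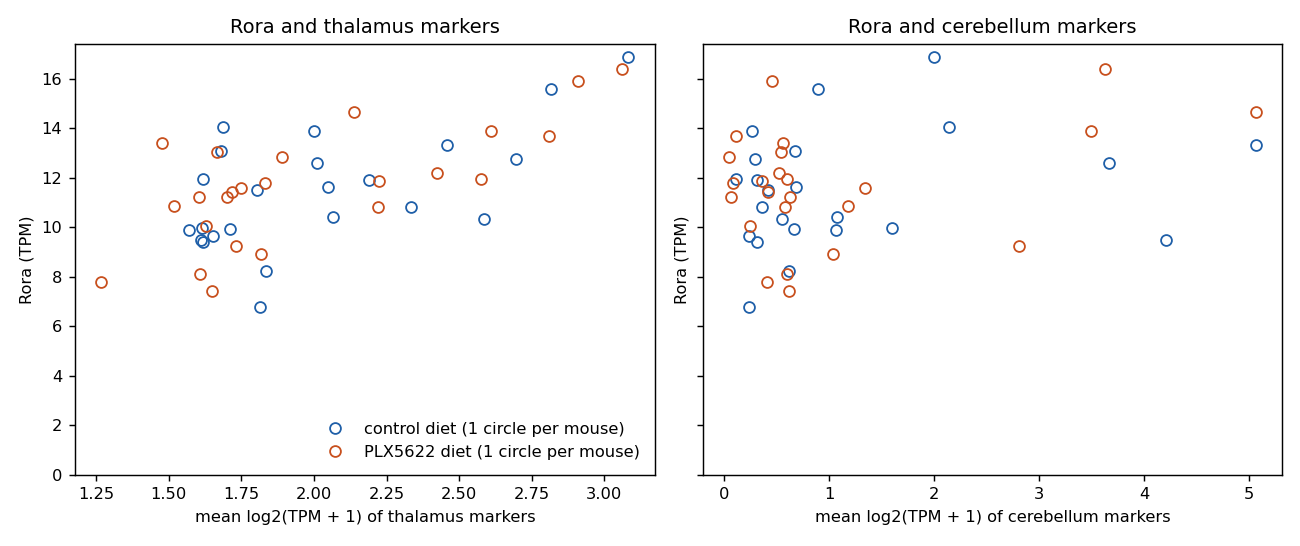
*Rora* in TPM (y axes) against the mean log2(TPM + 1) of 4 thalamus markers (left) and 3 cerebellum markers (right), with 1 circle per mouse, control mice in blue and PLX5622 mice in orange. The highest *Rora* value of each diet, 16.9 and 16.4 TPM, was in the library with the highest thalamus markers of that diet, at 3.08 and 3.06.

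*Rorb* (ENSMUSG00000036192, chromosome 19, 18930605 to 19111196, minus strand) encodes RORβ, which is known as a marker of layer 4 neurons in sensory cortex. Its ratio of the highest to the lowest group mean, 1.14 in control mice and 1.12 in PLX5622 mice, was the smallest of the 7 genes, and group means were 4.74 to 5.38 TPM in control mice and 4.83 to 5.40 TPM in PLX5622 mice. The amplitude was 0.05 (standard error 0.037; limma, adjusted p = 0.763) in control mice and 0.07 (standard error 0.037; adjusted p = 0.585) in PLX5622 mice. Single libraries held 3.76 to 5.82 TPM of *Rorb* in control mice and 4.16 to 6.47 TPM in PLX5622 mice. The markers of cortical layers 2 to 4 ran from 4.83 to 5.31 and from 4.72 to 5.25 as mean log2(TPM + 1). That is a mean over 6 genes, so its range cannot be set against that of 1 gene.

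The design asks whether the rhythm of these genes differs between diets, which was tested with the interaction of diet and time. None of the 7 genes passed, and 0% of the 14580 genes did, with 669 genes at an unadjusted p under 0.05 (limma). edgeR and DESeq2 called 0 genes as well. With 3 residual principal components as covariates, which shrinks the spread by construction, limma called 237 of the 14580 genes but none of the 7. The unadjusted p was 0.825 for *Arntl*, 0.969 for *Nr1d1* and 0.605 for *Nr1d2*. The peak of *Arntl* in PLX5622 mice lay 0.35 h before that in control mice, with a 95% interval from 1.68 h before to 0.98 h after it, so that shifts within this interval could not be told from no shift. For *Nr1d1* the difference was 0.12 h (-1.25 to 1.49 h) and for *Nr1d2* it was 0.11 h (-1.27 to 1.49 h). The differences in amplitude were 0.02 (-0.12 to 0.16), -0.01 (-0.19 to 0.16) and 0.06 (-0.06 to 0.18) on the log2 scale, in the same order. The interval of *Nr1d2* thus includes an amplitude up to 0.18 above its control amplitude of 0.30. The smallest unadjusted p was that of *Rorb*, 0.0931 with limma, 0.0391 with edgeR and 0.0409 with DESeq2, with adjusted values from 0.862 to 1. In limma alternatives the unadjusted p of *Rorb* was 0.0439 with median-of-ratios scaling and 0.0257 with 3 residual principal components. It was 0.0279 with the mitochondrial share, 0.0317 with the tissue markers and 0.432 with ZT as a factor. No alternative gave an adjusted p under 0.225. The fitted peaks of *Rorb* were at ZT 9.54 and ZT 19.2, a difference of 9.70 h (95% interval 2.72 to 16.7 h). These cosines did not pass the test of a rhythm in either diet.

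The mean level over the day was compared between diets with a fit of diet and time. None of the 7 genes passed, where 3.45% of all genes tested did in either direction, 2367 of them had an unadjusted p under 0.05, and the median difference over all genes was 0.03. *Clock* had a difference, PLX5622 minus control, of 0.10 on the log2 scale (95% interval -0.01 to 0.20; limma, adjusted p = 0.341). *Nr1d1* had -0.08 (-0.20 to 0.04; adjusted p = 0.508), which was -0.12 with edgeR, where *Clock* had 0.06, and *Arntl* had 0.07 (-0.03 to 0.16; adjusted p = 0.505). *Npas2*, *Rora*, *Rorb* and *Nr1d2* had differences of 0.02, 0.02, 0.03 and 0.00, and the intervals of the 7 genes reached from -0.20 to 0.20. The signs of *Npas2*, *Rora* and *Nr1d2* changed when TPM were scaled by the median of ratios. Over the same mice the 10 microglial markers differed without overlap, as given above.

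**Figure D5:**
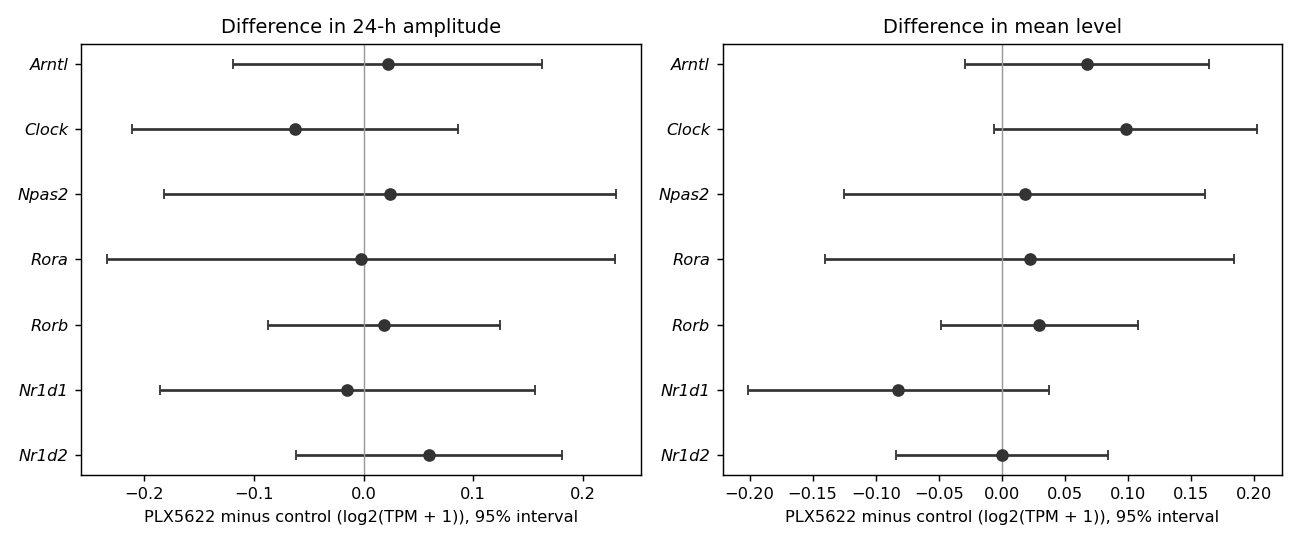
Differences between diets, PLX5622 minus control, in 24-h amplitude (left) and in mean level (right) on the log2(TPM + 1) scale for the 7 genes, with points for the estimates and bars for 95% intervals. All 14 intervals include 0, and those of amplitude reach from -0.23 to 0.23.

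JTK_CYCLE, a rank test for cosine-shaped rhythms that was run within each diet, called fewer genes. The version written here corrects over 6 phases, which is strict, since a two-sided test of 1 phase covers its opposite. With correction over 3 pairs of opposite phases it called 11 genes of all tested in control mice, *Arntl* and *Nr1d2* among them. In control mice it called *Arntl* (adjusted p = 0.0437, exact rank test, n = 23), 1 of 7 genes, on a background of 0.0137% of genes tested. *Nr1d2* had an adjusted p of 0.0565 and *Nr1d1* of 0.167 in the same exact test. In PLX5622 mice it called *Arntl* (adjusted p = 0.0124), *Nr1d2* (0.0124) and *Nr1d1* (0.0240), 3 of 7 genes, on a background of 0.261%. *Clock*, *Npas2*, *Rora* and *Rorb* had adjusted p-values of 1 in both diets. The difference in calls between diets is not a test of a difference. The control call of *Arntl* was present in 6 of 23 fits that each left out 1 library, whose adjusted p-values ran from 0.0225 to 0.124. Without the 4 PLX5622 libraries with cerebellum markers, JTK_CYCLE called 0 of all 14580 genes in PLX5622 mice, so none of the 7. Its adjusted p-values were then 0.117 for *Arntl* and *Nr1d1* and 0.367 for *Nr1d2*. The unadjusted p of this rank test fell for *Nr1d1*, from 3.96e-05 with all PLX5622 libraries to 1.19e-05 without these. It rose from 9.34e-06 to 7.23e-05 for *Arntl* and from 1.36e-05 to 0.00248 for *Nr1d2*.

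Of 31 other genes of the clock pathway, listed for their roles, 5 had a 24-h rhythm in control mice and 9 in PLX5622 mice (limma), on the backgrounds of 0.604% and 1.45%, and all 5 were among the 9. With edgeR these counts were 12 and 10. The limma calls were *Per3*, *Ciart* and *Bhlhe41* among 8 repressors and *Dbp* and *Tef* among 4 bZIP factors of the output, joined in PLX5622 mice by *Per1*, *Per2*, *Hlf* and *Nfil3*, which with edgeR passed in control mice too (adjusted p = 0.00126, 0.00212, 0.00842 and 0.0225). *Dbp*, a target of the BMAL1 pairs, peaked at ZT 12 and ZT 12.2, and *Ciart*, a repressor of the same pairs, at ZT 12.5 and ZT 12.2, close to *Nr1d2*. *Nfil3*, a gene that REV-ERBs are known to repress, peaked at ZT 20.3 (standard error 1.26 h) in control mice and ZT 23.2 (standard error 0.89 h) in PLX5622 mice, on the *Arntl* side of the day; its rhythm in control mice passed with edgeR and DESeq2 but not with limma (adjusted p = 0.242). None of 9 kinases and ubiquitin ligase genes and none of 8 co-activators and co-repressors passed the limma test of a rhythm, and none of the 31 differed in rhythm between diets. *Sirt1*, a deacetylase, passed in control mice with edgeR (adjusted p = 0.0460). In level, *Nampt*, an enzyme of NAD synthesis, rose by 0.16 in PLX5622 mice (limma, adjusted p = 0.0313), and *Csnk1e*, a kinase that phosphorylates PER proteins, fell by 0.13 (limma, adjusted p = 0.0380). *Dbp* had a difference of -0.12 with limma (adjusted p = 0.145) and of -0.17 with edgeR, where it passed (adjusted p = 0.0201). *Arntl2*, the paralog of *Arntl*, had no rhythm that passed (limma, adjusted p = 0.90 in control mice and 0.376 in PLX5622 mice).

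Among 10543 genes expressed at a mean of 5 TPM or more, the 3 whose 12 group means of log2(TPM + 1) were most like each gene were listed by Pearson's r, as a description, since the means come from the same libraries. *Nr1d2* was most like *Bhlhe41* (r = 0.970), *Coq10b* (0.961) and *Ciart* (0.956). *Arntl* was most like *Cldn5* (0.926), a tight junction gene of endothelial cells, *Txlng* (0.907) and *Gm21955* (0.889). For *Nr1d1* these were *Eid1* (0.948), *Daglb* (0.946) and *D1Ertd622e* (0.946), and for *Rora* they were *Acaca* (0.968), *Dido1* (0.941) and *Btbd3* (0.934). *Clock* was closest to *Dok6* (0.923), *Sesn3* (0.919) and *4930402H24Rik* (0.917), *Rorb* to *Mycbp2* (0.918), *4932438A13Rik* (0.913) and *Mib1* (0.874), and *Npas2* to *Homer1* (0.828), *Ccdc137* (0.803) and *Slco1c1* (0.803). Over the 47 libraries the r of *Nr1d2* was 0.884 with *Bhlhe41* and 0.894 with *Ciart*, and that of *Npas2* with *Ccdc137* was 0.152. For the first gene listed it was 0.818 for *Arntl*, 0.738 for *Rora* and 0.718 for *Nr1d1*. It was 0.679 for *Rorb*, 0.643 for *Npas2* and 0.526 for *Clock*.

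The exons of 3 genes overlap a gene on the other strand, and whether the counting used strand was not given in the sources used here. *Nr1d1* shares 263 exon bases, 8.55% of its exons, with *Thra*, a thyroid hormone receptor gene with a mean of 660 TPM against 50.1 TPM of *Nr1d1*. *Thra* had no rhythm that passed in control mice (limma, adjusted p = 0.723) or in PLX5622 mice (0.798), and its amplitude was 0.06 and 0.04. The overlaps of *Arntl* with *Gm45355* (33 bases) and of *Rora* with *Gm15511* (82 bases) involve genes listed at a mean of 0 and 0.00882 TPM.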

How the data were processed

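The authors aligned reads to GRCm38.p6 with STAR, and their deposited TPM come from Salmon with Gencode genes. The deposited counts are whole numbers per gene without normalization. The labels name featureCounts, and its annotation and strand setting were not given in the sources used here. Gene symbols were matched through GENCODE M21.

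The main tests used limma 3.58.1 in R 4.3.3 on log2(TPM + 1) over all 47 libraries, with diet, the cosine and sine of ZT at 24 h and their interactions, as in the study's design, and Benjamini-Hochberg adjustment over 14580 genes at 0.05. JTK_CYCLE was written here with an exact null, two-sided, with Bonferroni correction over 6 phases. Standard errors of gaps between genes are jackknife values over libraries. edgeR 4.0.16 and DESeq2 1.42.0 were used on the counts as alternatives. The others were filters on low values, a pseudocount of 0.1, median-of-ratios scaling, a replicate block, covariates, an eBayes trend, ZT as a factor, each diet alone, a threshold of 0.01 and libraries left out. The scripts were tested on simulated data. Figures were drawn with matplotlib 3.10.9. Sequences are from RefSeq (GRCm38.p6), where all 7 symbols matched 11 windows. Motifs were searched on both strands.

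The 7 genes, the gene lists and the tests were chosen with earlier results of these data known. The text names the 7 genes, the called genes and a paralog of the pathway list, genes with overlapping exons and the 3 most alike genes of each. The values of 1 listed gene are not reported here. The mice are separate animals, but which shared a cage is not known, so p-values measure the spread between these libraries. The closest 2 libraries of a group differed by a chi-square of 4.30 per degree of freedom over 69 pairs, so none was counted as a repeat.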

Additional observations from a re-analysis of the deposited data

Results flagged for a closer look

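In each group of 4 mice, the highest and the lowest TPM of each of the 7 genes were compared with the range of the group by Dixon's ratio. Of 77 groups examined, 6 held a sample far from the others, where chance gives about 1 in 20 (3.85). *Arntl* had 11.8 TPM in control mouse 1 at ZT2 against 15.2 to 15.7 TPM in the other 3, and this library was among those with cerebellum markers. *Npas2* had 24.6 TPM in PLX5622 mouse 1 at ZT18, also a library with cerebellum markers, against 18.3 to 19.1 TPM. *Rorb* had 6.05 TPM in PLX5622 mouse 4 at ZT18 against 5.16 to 5.23 TPM, and 4.44 TPM in control mouse 2 at ZT2 against 5.10 to 5.20 TPM. *Nr1d1* had 72.3 TPM in control mouse 4 at ZT6 against 56.1 to 58.5 TPM. *Nr1d2* had 42.4 TPM in control mouse 2 at ZT18 against 34.0 to 35.1 TPM.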

How the results depend on the processing

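The calls of *Arntl*, *Nr1d1* and *Nr1d2* in both diets held under all 13 alternatives, edgeR and DESeq2 on the counts among them, and in limma with each of 47 libraries left out, and none of these called a difference in rhythm for the 7 genes. Among the 13, the fits with cerebellum and thalamus markers as covariates and without the cerebellum libraries were chosen after seeing the data. The number of the 7 genes with a rhythm in control mice was 5 with edgeR and 5 with DESeq2 instead of 3. It was 4, with *Clock*, with median-of-ratios scaling, 3 residual principal components or the mitochondrial share. Of all genes, 588 of 18274 passed with edgeR and 822 of 28609 with DESeq2 in control mice. In limma, 302, 2345 and 248 of 14580 genes passed with the scaling, the components and the share, against 88 in the main fit. In PLX5622 mice the number of the 7 genes with a rhythm was 4, with *Clock*, with DESeq2 or 3 residual principal components (adjusted p = 0.0361 and 0.0318). Of all genes, 722 of 28609 and 2371 of 14580 passed there, in the same order, against 212 in the main fit. With 3 residual principal components, 1 gene of the 7 differed in level, *Clock* (adjusted p = 0.00896, limma). That fit shrinks the spread by construction and called 2428 of the 14580 genes for level, against 503 in the main fit. JTK_CYCLE in control mice called 2 of the 7 genes with a limit of 5 TPM, 0 with no filter and 3 with CPM of plain library totals. It called 0 at an adjusted p under 0.01, and 2 with correction over 3 pairs of opposite phases (chosen after seeing the data). With 1 library left out it called 0 to 2. Of all genes tested, 7 were called with the limit of 5 TPM, 0 with no filter, 33 with CPM, 0 at 0.01 and 11 with 3 pairs. In PLX5622 mice JTK_CYCLE called 0 of the 7 at 0.01, 0 without the libraries with cerebellum markers (chosen after seeing the data) and 2 to 3 with 1 library left out. Of all genes tested, 8 were called at 0.01 and 0 without those libraries. Signs of level differences, none of which passed, changed for *Npas2* (-0.0057 with median-of-ratios scaling, -0.017 to 0.045 with 1 library left out), for *Rora* (-0.0012 with that scaling, -0.015 without the cerebellum libraries, -0.0091 to 0.049 with 1 left out) and for *Nr1d2* (-0.00010 with a pseudocount of 0.1, -0.024 with median-of-ratios scaling, -0.00078 with the replicate block, -0.0017 with the mitochondrial share, -0.0047 with ZT as a factor, -0.014 without the cerebellum libraries, and -0.019 to 0.013 with 1 left out). The cause was not tested. Deviations of same-numbered libraries had a mean r of 0.051, against -0.017 for other pairs. Deviations from a group mean cancel within the group, which ties these values, so the second is no independent baseline. Whether replicate numbers paired the mice was therefore not tested. With a block on the number, 3 of the 7 genes passed for rhythm in each diet, and 0 for its difference and for level. Of all genes, this block called 255 for rhythm in control mice and 270 in PLX5622 mice, against 88 and 212 in the main fit. Counting error of up to 6.23% limits comparisons of single mice.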
